A study of Mus musculus with 9 samples.

Results

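The Wnt pathway was read here through 47 protein-coding genes out of the 54532 genes of the count table, of which 22046 are protein-coding. The 47 genes were all Wnt ligands, Frizzled receptors (Fzd), secreted frizzled-related proteins (Sfrp) and Dickkopf genes (Dkk) found by symbol, with Frzb, Wif1, the co-receptors Lrp5 and Lrp6, Axin2, β-catenin (Ctnnb1) and the TCF/LEF factors Lef1, Tcf7, Tcf7l1 and Tcf7l2. They comprised 19 ligands, 10 Frizzled receptors, 2 co-receptors, 6 secreted antagonists that bind ligands, 4 Dickkopf genes, Axin2, Ctnnb1 and 4 TCF/LEF factors. Poly A RNA was sequenced from 3T3-L1 cells, a clonal mouse preadipocyte line that turns into adipocytes under a hormone cocktail, in 3 groups of 3 libraries. The Undifferentiated group was held at confluence for 3 days without the cocktail. The Differentiated group received the cocktail after the same confluence, namely insulin at 10 μg/mL, rosiglitazone and dexamethasone each at 1 μM, and 0.5 mM of 3-isobutyl-1-methylxanthine (IBMX), in medium with 800 μM of added lysine. The Lysfree group received the same cocktail in medium to which no lysine was added. All 3 groups were the same line with no transgene or deletion named in the labels. The base medium and the serum named for the cells before the cocktail differed from those named for the differentiation medium, to which arginine was added. The day on which the Undifferentiated cells were harvested was not given in the sources used here. In comparisons with the Undifferentiated group, the cocktail, the base medium with its added amino acids, the serum and the day of harvest therefore cannot be told apart. The labels do not say whether the 3 libraries of a group came from separate cultures, so p-values measure the spread between these samples, which may be technical.

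Wnt proteins are secreted, lipid-modified ligands that bind a Frizzled receptor together with Lrp5 or Lrp6. In the canonical branch this binding stops the destruction complex from degrading β-catenin, which then enters the nucleus and pairs with TCF/LEF factors at target genes. Sfrp, Frzb and Wif1 proteins bind the ligands outside the cell, and most Dickkopf proteins block the co-receptors. In preadipocytes the canonical branch is known for holding back adipocyte differentiation, and Wnt10b is the ligand best known for it.

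The reads summed to between 15880144 and 21806693 counts per library, with a median of 17784064. No library was a duplicate of another, and Lysfree 1 stood apart, with a chi-square per degree of freedom of 43.4 and 44.6 against Lysfree 2 and Lysfree 3, which differed from each other by 2.76. The 6 adipocyte markers (Pparg, Cebpa, Fabp4, Adipoq, Plin1 and Lpl) summed to 267 to 331 FPKM (fragment counts scaled by gene length and library total) in Undifferentiated, 4047 to 4323 in Differentiated and 224 to 297 in Lysfree libraries. Between Undifferentiated and Lysfree cells these members moved apart. Mean Lpl went from 146 to 188 FPKM, while Adipoq went from 57.8 to 4.18 and Cebpa from 22.9 to 8.23. Pparg, Fabp4 and Plin1 were also lower in Lysfree cells. The 6 fibroblast and preadipocyte markers (Pdgfra, Pdgfrb, Thy1, Col1a1, Col1a2 and Dlk1) summed to 3452 to 3783, 634 to 653 and 906 to 966 FPKM in the same groups. Col1a1 and Col1a2 made up most of these sums. Mean Thy1 was 70.4, 27.8 and 89.1 FPKM in these groups, and Pdgfrb 84.4, 15.2 and 54.3. Pdgfra was at 43.7, 6.94 and 12.9 FPKM on average and Dlk1 at 270, 30.3 and 65.2. Col1a1 was at 1887, 362 and 327, lower in Lysfree than in Differentiated cells, and Col1a2 at 1282, 199 and 393. Ptprc and Adgre1, the defining markers of leukocytes and macrophages, had at most 1 count in any library, while Cd68, also found outside macrophages, was at 1.65, 4.12 and 4.405 FPKM on average in Undifferentiated, Differentiated and Lysfree cells. Csf1r, with at most 13 counts in a library, went the other way at 0.120, 0.0340 and 0.00352 FPKM on average. The 4 macrophage markers summed to 1.63 to 1.92, 3.44 to 5.01 and 3.62 to 4.85 FPKM in these groups. The epithelial marker Epcam had no count, and the 4 epithelial markers summed to 0.0327 to 0.377, 1.18 to 1.72 and 0 to 0.0115 FPKM, through Krt8 and Krt18. The 4 osteoblast markers, mostly Runx2, summed to 5.36 to 6.11, 1.72 to 2.11 and 1.94 to 2.50 FPKM. The 4 endothelial and 4 muscle markers summed to at most 0.446 FPKM per class, and Myod1 had no count. The part of these sums in the Wnt results was not tested. In bulk RNA, fewer cells of a type and less RNA per cell cannot be told apart.

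The promoters of 4 genes that were lower in Differentiated than in Undifferentiated cells and higher in Lysfree than in Differentiated cells are shown, as they carry the main pattern. Each window holds 250 bases before and 50 bases from the RefSeq start (GRCm38.p6, the same assembly as mm10), and capitals mark matches on either strand to the GC box letters GGGCGG, to the CCAAT box or to the letters TATAAA of the TATA box. Ctnnb1 lies at chr9:120933150-120933449 on the plus strand, Fzd7 at chr1:59481897-59482196 on the plus strand, Fzd1 at chr5:4758167-4758466 on the minus strand and Sfrp2 at chr3:83766071-83766370 on the plus strand.
Ctnnb1: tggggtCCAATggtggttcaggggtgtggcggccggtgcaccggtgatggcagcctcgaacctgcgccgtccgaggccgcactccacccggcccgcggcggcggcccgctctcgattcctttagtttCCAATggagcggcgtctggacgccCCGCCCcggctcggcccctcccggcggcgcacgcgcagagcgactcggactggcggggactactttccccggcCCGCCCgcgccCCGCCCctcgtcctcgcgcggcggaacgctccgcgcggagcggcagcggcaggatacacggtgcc
Fzd7: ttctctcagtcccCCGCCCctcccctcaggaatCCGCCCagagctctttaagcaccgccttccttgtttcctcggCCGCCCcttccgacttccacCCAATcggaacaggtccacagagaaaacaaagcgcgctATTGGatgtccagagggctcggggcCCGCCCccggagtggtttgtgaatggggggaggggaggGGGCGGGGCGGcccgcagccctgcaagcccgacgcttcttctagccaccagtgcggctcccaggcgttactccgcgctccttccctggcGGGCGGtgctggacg
Fzd1: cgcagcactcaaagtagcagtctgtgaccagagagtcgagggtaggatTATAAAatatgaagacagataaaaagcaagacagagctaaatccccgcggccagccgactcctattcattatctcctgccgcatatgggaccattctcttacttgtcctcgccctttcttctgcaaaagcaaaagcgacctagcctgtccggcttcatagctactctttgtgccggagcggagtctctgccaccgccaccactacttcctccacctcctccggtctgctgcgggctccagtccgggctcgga
Sfrp2: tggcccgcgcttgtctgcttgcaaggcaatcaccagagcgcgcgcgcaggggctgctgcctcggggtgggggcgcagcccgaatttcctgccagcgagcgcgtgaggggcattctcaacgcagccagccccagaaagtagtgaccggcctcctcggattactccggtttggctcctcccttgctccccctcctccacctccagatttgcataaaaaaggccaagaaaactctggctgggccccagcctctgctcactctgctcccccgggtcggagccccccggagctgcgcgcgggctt
The 4 windows differed in these letters. Fzd7 held 7 GC box matches, some of which overlap, and 2 CCAAT matches, Ctnnb1 held 3 and 2, Fzd1 held 1 TATA match and neither of the others, and Sfrp2 held none of them. The RefSeq start is the start of the deposited gene for Sfrp2, and lies 181 bases from it for Fzd1, 277 for Fzd7 and 4184 for Ctnnb1, which has 2 RefSeq windows of which the first is shown.

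RefSeq windows were found for 33 of the 47 genes, 42 windows in all. The TCF/LEF letters CTTTGAT or CTTTGAA, on either strand, occurred in 3 of the 42 windows (of Dkk1, Wnt11 and Wnt5b) and in 8.65% of all 32851 windows. GC boxes occurred in 33 of the 42 windows, against 35.7% of all windows, and the median GC content was 67.3% against 52.7%. CCAAT letters occurred in 13 of the 42 windows and TATA letters in 9 of the 42, against 37.4% and 13.6% of all windows. No window held the cAMP response element TGACGTCA, the glucocorticoid response element, the DR1 element or the ATF4 element TGATGCAAT, which occurred in 1.79%, 0.00913%, 0.0396% and 0.192% of all windows. These are letter matches only, and a window without a match says nothing about the factor.

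Of the 47 genes, 19 reached a mean of 1 CPM (count scaled to library total) in at least 1 group. Another 9 stayed under that level with more than 3 counts in some library, 7 had at most 3 counts in every library and 12 had no count in any library. Few ligands and antagonists were well above the floor. Wnt5a, Wnt4, Wnt6 and Wnt9a reached 1 CPM, while Wnt1, Wnt3, Wnt3a, Wnt8b, Wnt9b and Wnt16 had no count. Sfrp2 was the 1 of 6 secreted antagonists that reached it. Of the receptors, 7 of 10 Frizzled genes and both co-receptors reached 1 CPM, and Fzd6 and Fzd10 had no count. Dkk1, the classic blocker of Lrp5 and Lrp6, and Dkk4, Frzb and Wif1 also had no count. Axin2, a scaffold of the destruction complex and a widely used direct target of β-catenin, had 0 or 1 count in each of the 9 libraries. A count of 3, the floor chosen here, corresponded to 0.138 to 0.189 CPM per library, and such floors cover counting error only. Counts at or below it were seen in some libraries but are too few to set a level.

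**Figure D1:**
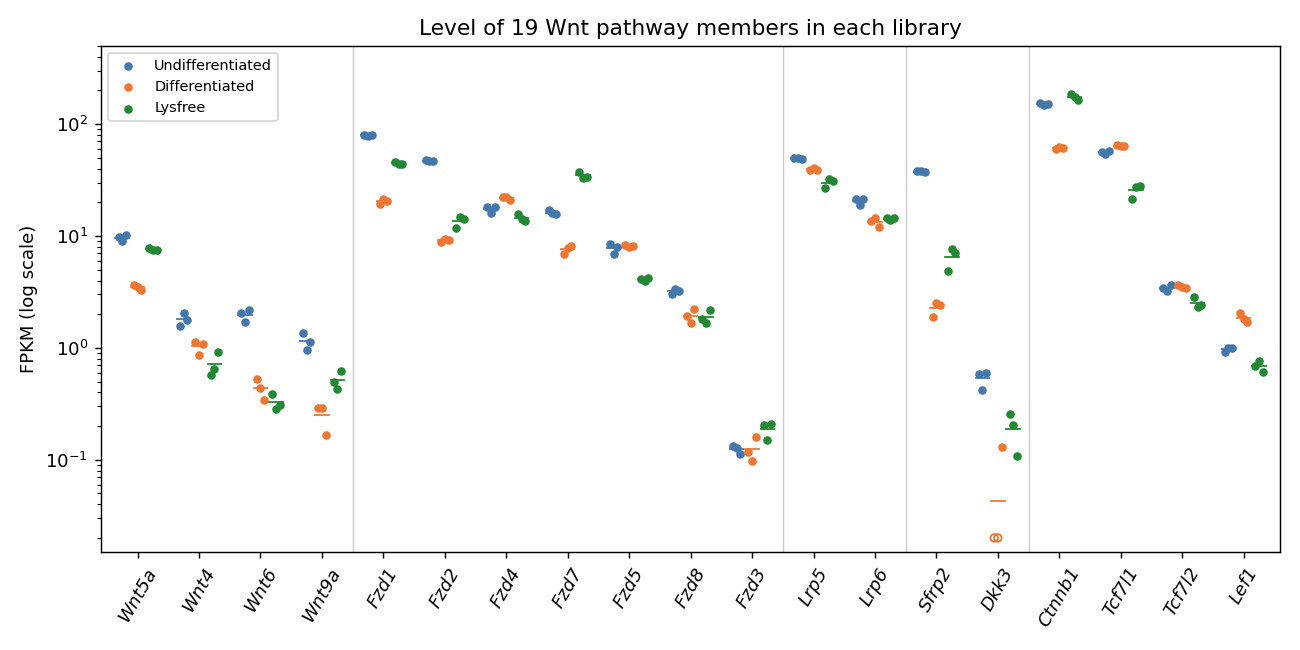
FPKM on a log axis for the 19 genes that reached 1 CPM in a group, with 1 point per library (3 per group) and a bar at the group mean. Open circles at the lower edge mark libraries with no count. Ctnnb1, Fzd1, Fzd7, Wnt5a and Sfrp2 have their lowest points in the Differentiated group, and Tcf7l1 has its lowest points in the Lysfree group.

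The counts of each pair of groups were compared with edgeR, and genes with a 2-fold or larger difference and an edgeR adjusted p under 0.05 over all genes were taken as differentially expressed genes (DEGs). In Differentiated vs Undifferentiated, 21.8% of all 24402 genes tested were DEGs, and 13 of the 32 Wnt genes tested were, 2 higher (10.4% of all genes were) and 11 lower (11.4%). In Lysfree vs Undifferentiated, 14.3% of all genes tested were DEGs, and 9 of 35 Wnt genes were, 1 higher (5.52% of all genes) and 8 lower (8.76%). In Lysfree vs Differentiated, 18.7% of all genes tested were DEGs, and 11 of 33 Wnt genes were, 7 higher (8.14% of all genes) and 4 lower (10.5%). The median log2 fold change of the Wnt genes tested was -0.76, -0.68 and 0.47 in these comparisons, beside 0.02, -0.02 and -0.06 over all genes tested. The FPKM of the groups did not overlap in 19, 21 and 18 of the Wnt genes tested, against 50.9%, 43.5% and 46.6% of all genes tested. Of all genes of 1 CPM or more in a compared group, 32.6% were DEGs in Differentiated vs Undifferentiated (15.3% higher and 17.3% lower), 21.8% in Lysfree vs Undifferentiated (8.69% and 13.1%) and 28.4% in Lysfree vs Differentiated (12.9% and 15.5%). Of the Wnt genes of that level, DEGs were 9 of 19 (0 higher and 9 lower), 8 of 19 (1 and 7) and 8 of 17 (6 and 2). Counted by 1 CPM in any of the 3 groups, 9 of 13, 8 of 9 and 9 of 11 of the Wnt DEGs reached that level. Without Lysfree 1, 10 Wnt genes were DEGs in Lysfree vs Undifferentiated and 11 in Lysfree vs Differentiated. Among the Wnt DEGs the log2 fold changes that moved by over 0.1 without it became, against Undifferentiated, -2.34 for Sfrp2, -1.17 for Wnt4, -2.70 for Wnt6 and -1.74 for Dkk3, and, against Differentiated, 1.73 for Sfrp2, 1.88 for Dkk3 and -1.91 for Sfrp5, of which that of Sfrp5 was no longer a DEG. Wnt10b (-1.72) and Sfrp4 became DEGs in Lysfree vs Undifferentiated without it, and Dkk2 was no longer a DEG there (edgeR adjusted p = 0.051). Sfrp4 then had no count in the remaining Lysfree libraries, so its value of -5.18 is not a measured size. As Sfrp5 was lost, the 11 in Lysfree vs Differentiated include a gene under 1 CPM that was not a DEG with Lysfree 1. The comparisons share libraries in pairs, so their values are set side by side and not counted as independent.

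**Figure D2:**
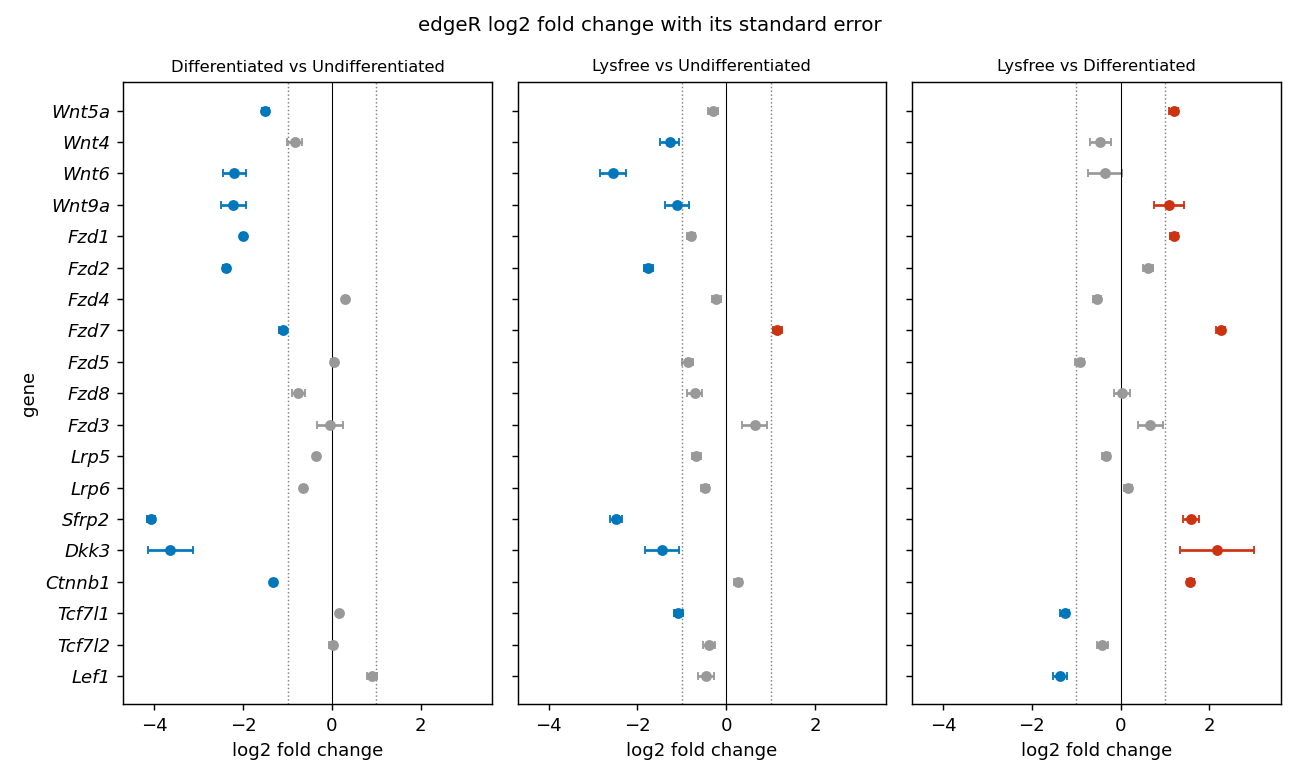
Log2 fold change of the 19 genes in the 3 comparisons, with bars for the standard error (n = 3 libraries per group). Blue points are DEGs that were lower, red points DEGs that were higher, grey points were not DEGs, and dotted lines mark 2-fold. In Lysfree vs Differentiated, Fzd7 has the largest log2 fold change of the 19 (2.25), and Dkk3 the widest bar.

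Wnt5a was the most abundant ligand mRNA in each group. Its protein signals mostly through branches that do not use β-catenin. Wnt5a (ENSMUSG00000021994, mm10 chromosome 14, 28504750 to 28527448) was at 9.82, 8.97 and 10.2 FPKM in the Undifferentiated, 3.61, 3.51 and 3.30 FPKM in the Differentiated and 7.88, 7.44 and 7.52 FPKM in the Lysfree libraries. The 3 groups did not overlap. Wnt5a fell in Differentiated vs Undifferentiated, with a log2 fold change of -1.50 (SE, the standard error, 0.07, edgeR adjusted p = 1.5e-88), and was higher in Lysfree than in Differentiated cells by 1.20 (SE 0.10, edgeR adjusted p = 5.3e-09). Lysfree against Undifferentiated gave -0.30 (SE 0.10, edgeR adjusted p = 0.024), under 2-fold. Wnt5a made up 64.7% ± 0.542 (SD, n = 3) of the summed ligand FPKM in Undifferentiated, 64.8% ± 1.51 in Differentiated and 80.3% ± 2.27 in Lysfree cells. The summed level itself was 14.9 ± 0.875, 5.36 ± 0.337 and 9.49 ± 0.257 FPKM.

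Wnt4, Wnt6 and Wnt9a were less abundant than Wnt5a. Wnt6 (chromosome 1, 74771892 to 74785322), a ligand of the canonical branch in preadipocytes, was at 2.06, 1.71 and 2.19 FPKM in Undifferentiated, 0.531, 0.441 and 0.339 in Differentiated and 0.389, 0.287 and 0.306 FPKM in Lysfree libraries. It was low in both groups that received the cocktail, and these 2 groups overlapped. The log2 fold change was -2.20 (SE 0.26, edgeR adjusted p = 4.7e-16) in Differentiated and -2.54 (SE 0.29, edgeR adjusted p = 9.5e-09) in Lysfree against Undifferentiated cells, and -0.35 (SE 0.39, edgeR adjusted p = 0.50) between the cocktail groups. Wnt4 (chromosome 4, 137277489 to 137299726) was at 1.57, 2.04 and 1.77 FPKM in Undifferentiated, 1.12, 0.871 and 1.09 in Differentiated and 0.570, 0.650 and 0.921 FPKM in Lysfree libraries. Its lowest and highest libraries of the cocktail groups overlapped, and it was a DEG only in Lysfree vs Undifferentiated (log2 fold change -1.28, SE 0.22, edgeR adjusted p = 1.1e-05). The difference between Lysfree and Differentiated was -0.45 (SE 0.23, edgeR adjusted p = 0.14). Wnt9a (chromosome 11, 59306928 to 59333552) was at 1.37, 0.959 and 1.13 FPKM in Undifferentiated, 0.291, 0.290 and 0.167 in Differentiated and 0.496, 0.425 and 0.619 FPKM in Lysfree libraries. The 3 groups of Wnt9a did not overlap, with Lysfree between the others. It fell in Differentiated vs Undifferentiated by 2.22 on the log2 scale (SE 0.28, edgeR adjusted p = 1.9e-14). Its calls with Lysfree rested on single libraries. The log2 fold change was -1.11 in Lysfree vs Undifferentiated (edgeR adjusted p = 0.00082), and -0.97 without Undifferentiated 1 and -0.996 without Lysfree 2, both under 2-fold. In Lysfree vs Differentiated it was 1.09 (edgeR adjusted p = 0.014), with edgeR adjusted p = 0.073 without Differentiated 3 and 0.068 without Lysfree 3.

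The remaining ligands were near the floor. Wnt10b had 16, 11 and 10 counts in Undifferentiated, 1, 0 and 0 in Differentiated and 6, 5 and 2 in Lysfree libraries. It was at least 3.62-fold lower in Differentiated than in Undifferentiated cells, against a floor of 3 counts per library (edgeR adjusted p = 1.6e-05), and the other 2 comparisons did not pass the test (edgeR adjusted p = 0.084 and 0.057). Wnt2b had 5 to 11 counts, Wnt11 0 to 8 and Wnt5b 0 to 4, and none of the 3 was a DEG. Wnt5b shares 2963 bases with Fbxl14 on the other strand, which had 9162 counts against 13 of Wnt5b, so its reads are uncertain. Wnt2, Wnt7a, Wnt7b, Wnt8a and Wnt10a had at most 3 counts in every library.

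The Frizzled receptors differed between groups in both level and makeup. Their summed level was 172 ± 2.74 FPKM (SD, n = 3) in Undifferentiated, 69.2 ± 1.53 in Differentiated and 114 ± 2.84 FPKM in Lysfree cells. Fzd1 (ENSMUSG00000044674, chromosome 5, 4753839 to 4758035) was at 79.3, 79.0 and 80.6 FPKM in Undifferentiated, 19.2, 21.4 and 20.4 in Differentiated and 45.6, 44 and 44.2 FPKM in Lysfree libraries. The Lysfree libraries lay between the other groups with no overlap. Fzd1 fell in Differentiated vs Undifferentiated (log2 fold change -1.99, SE 0.06, edgeR adjusted p = 4.1e-267) and was higher in Lysfree than in Differentiated cells (1.20, SE 0.09, edgeR adjusted p = 4.2e-10). Against Undifferentiated, the Lysfree value of -0.79 (edgeR adjusted p = 2.2e-08) was under 2-fold.

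Fzd7 (ENSMUSG00000041075, chromosome 1, 59482424 to 59486955), a receptor known from embryonic and stem cells, was at 17.0, 15.9 and 15.7 FPKM in Undifferentiated, 6.93, 7.82 and 8.16 in Differentiated and 37.7, 33.1 and 33.9 FPKM in Lysfree libraries. Every Lysfree library lay above every library of the other groups, and it was the 1 Wnt gene that was a DEG in all 3 comparisons without Lysfree lying between the others. The log2 fold change was -1.11 (SE 0.07, edgeR adjusted p = 2.2e-52) in Differentiated vs Undifferentiated, 1.15 (SE 0.10, edgeR adjusted p = 2.7e-11) in Lysfree vs Undifferentiated and 2.25 (SE 0.10, edgeR adjusted p = 1.3e-13) in Lysfree vs Differentiated. Fzd7 was the only Wnt DEG that was higher in Lysfree than in Undifferentiated cells. Its promoter is the window above with 7 GC box matches. GC boxes also occurred in the windows of Fzd4 and Fzd5, which were not DEGs.

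Fzd2 (ENSMUSG00000050288, chromosome 11, 102604396 to 102608058), a receptor of Wnt5a among other ligands, was at 47.5, 46.9 and 47.0 FPKM in Undifferentiated, 8.77, 9.48 and 9.21 in Differentiated and 11.7, 14.6 and 14.1 FPKM in Lysfree libraries. It was low in both cocktail groups. Fzd2 fell by 2.39 (SE 0.07, edgeR adjusted p = 8.9e-291) in Differentiated and by 1.76 (SE 0.11, edgeR adjusted p = 5.1e-15) in Lysfree cells on the log2 scale against Undifferentiated. The difference between Lysfree and Differentiated, 0.63 (SE 0.11, edgeR adjusted p = 0.00012), was under 2-fold.

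None of Fzd4, Fzd5, Fzd8 and Fzd3 was a DEG in any comparison. Fzd4, which is also the receptor of Norrin, ranged over group means of 17.4, 21.8 and 14.4 FPKM in Undifferentiated, Differentiated and Lysfree cells, Fzd5 over 7.77, 8.16 and 4.12, and Fzd8 over 3.21, 1.94 and 1.89 FPKM. The value nearest to 2-fold was that of Fzd5 in Lysfree vs Differentiated, -0.92 (SE 0.10, edgeR adjusted p = 2.2e-07), where the Lysfree libraries of 3.96 to 4.23 FPKM lay below all others. Fzd3 stayed between 0.0964 and 0.209 FPKM and Fzd9 had 0 to 8 counts per library.

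As a share of the summed Frizzled FPKM, Fzd1 led in Undifferentiated cells with 46.4% ± 0.667 (SD, n = 3), followed by Fzd2 with 27.5% ± 0.346. In Differentiated cells Fzd4, at 31.5% ± 1.45, and Fzd1, at 29.4% ± 0.935, were close. Their ranges, 30.1% to 33.0% and 28.4% to 30.2%, overlapped. In Lysfree cells Fzd1 held 39.3% ± 0.195 and Fzd7 30.7% ± 1.38, against 9.45% ± 0.335 of Fzd7 in Undifferentiated and 11% ± 0.786 in Differentiated cells. The share of Fzd2 was 13.2% ± 0.243 in Differentiated and 11.9% ± 1.66 in Lysfree cells. These shares are a description, since they follow from the levels above.

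**Figure D3:**
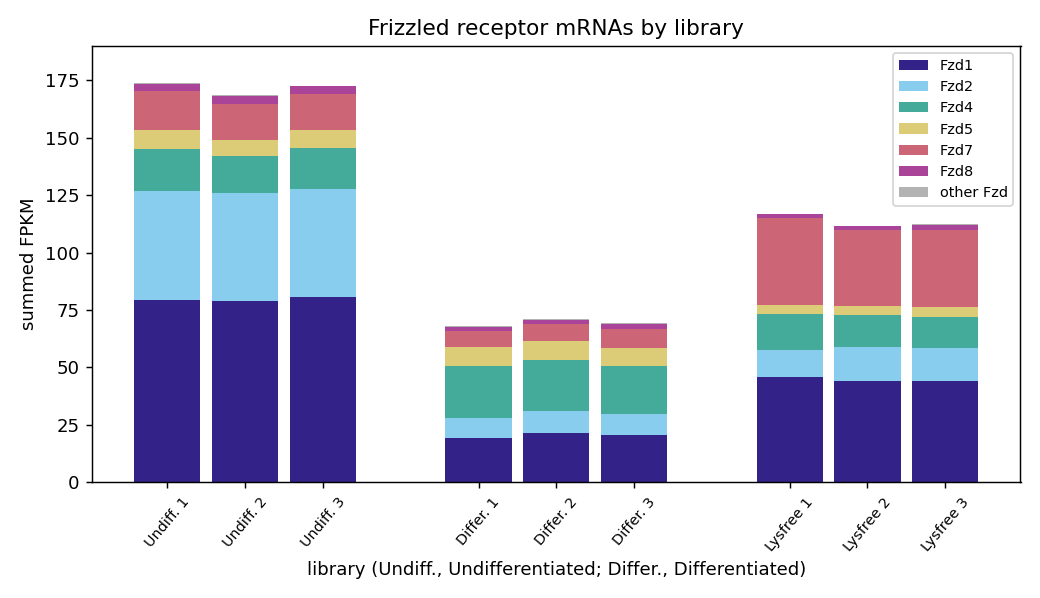
Summed FPKM of the Frizzled receptor genes in each of the 9 libraries, stacked by gene. The total is highest in Undifferentiated and lowest in Differentiated libraries, and the Fzd7 segment is tallest in the 3 Lysfree libraries, at 33.1 to 37.7 FPKM.

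The co-receptors were not DEGs. Lrp5 was at 49.2 to 50.2 FPKM in Undifferentiated, 38.8 to 40.5 in Differentiated and 27.0 to 32.2 FPKM in Lysfree libraries, which did not overlap, and its log2 fold changes lay between -0.68 (Lysfree vs Undifferentiated) and -0.33 (Lysfree vs Differentiated). Lrp6 was at 19 to 21.5, 12.1 to 14.5 and 13.9 to 14.6 FPKM. The cocktail groups overlapped for Lrp6, with a difference of 0.16 (SE 0.09, edgeR adjusted p = 0.19).

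Sfrp2, an antagonist that binds Wnt ligands, was the Wnt gene of at least 1 CPM with the largest fold change. Sfrp2 (ENSMUSG00000027996, chromosome 3, 83766321 to 83774316) was at 38.1, 37.8 and 37.2 FPKM in Undifferentiated, 1.89, 2.49 and 2.42 in Differentiated and 4.86, 7.60 and 7.08 FPKM in Lysfree libraries. The groups did not overlap. It was 16.8-fold lower in Differentiated than in Undifferentiated cells (log2 fold change -4.07, SE 0.10, its edgeR adjusted p being below the smallest number the program stores) and 5.58-fold lower in Lysfree than in Undifferentiated cells (-2.48, SE 0.14, edgeR adjusted p = 3.1e-16). Between Lysfree and Differentiated the log2 fold change was 1.59 (SE 0.19, edgeR adjusted p = 5.1e-07), and 1.73 without Lysfree 1, the lowest Lysfree library.

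Of the other antagonists, Sfrp1 had at most 1 count per library. Sfrp5, which is known from adipose tissue as a secreted inhibitor of Wnt5a, had 2, 3 and 0 counts in Undifferentiated, 4, 4 and 13 in Differentiated and 0, 2 and 2 in Lysfree libraries. It was at least 2.64-fold higher in Differentiated than in Undifferentiated cells and at least 2.41-fold higher than in Lysfree cells (edgeR adjusted p = 0.029 and 0.046). Without Differentiated 3 these bounds were 1.46-fold and 1.34-fold. The first call was lost without Undifferentiated 1 (edgeR adjusted p = 0.051), Undifferentiated 3 (0.11) or Differentiated 3 (0.41), and the second without Differentiated 3 (edgeR adjusted p = 0.39), Lysfree 1 (0.082) or Lysfree 3 (0.050). Sfrp4 had 8, 6 and 0 counts in Undifferentiated, none in Differentiated and 1, 0 and 0 in Lysfree libraries, and was called lower in Differentiated than in Undifferentiated cells (edgeR adjusted p = 0.0093), a call lost without Undifferentiated 1 (edgeR adjusted p = 0.086). Against the floor of 3 counts per library its bound was only 1.25-fold, and 0.79-fold without Undifferentiated 1. The counts therefore do not show a 2-fold fall of Sfrp4.

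Dkk3 (chromosome 7, 112116017 to 112159057), a divergent Dickkopf not known to block the co-receptors as Dkk1 does, was at 0.587, 0.421 and 0.595 FPKM in Undifferentiated, 0, 0 and 0.129 in Differentiated and 0.254, 0.203 and 0.107 FPKM in Lysfree libraries. Undifferentiated libraries lay above all others, and the cocktail groups overlapped. Dkk3 fell by 3.64 (SE 0.50, edgeR adjusted p = 1.8e-12) in Differentiated and by 1.45 (SE 0.38, edgeR adjusted p = 0.0022) in Lysfree cells on the log2 scale against Undifferentiated. The 7 counts of Differentiated 3 set the size of the first value. Without that library Dkk3 had no count in Differentiated cells, so the value of -8.07 found then is not a measured size. Lysfree against Differentiated gave 2.17 (SE 0.83, edgeR adjusted p = 0.044), a call lost without Differentiated 1 (edgeR adjusted p = 0.11), Differentiated 2 (0.20) or Lysfree 2 (0.05). Differentiated 3 set the size of this value too, which was 1.55 to 2.45 without any other 1 library. The 6.54 found without Differentiated 3 again rests on no count in Differentiated cells and is not a measured size. Dkk2 had 2, 8 and 2 counts in Undifferentiated, 1, 4 and 1 in Differentiated and none in Lysfree libraries, and its call in Lysfree vs Undifferentiated (edgeR adjusted p = 0.03) was lost without any 1 of 5 libraries, Undifferentiated 2, Undifferentiated 3 and each Lysfree library (edgeR adjusted p = 0.051 to 0.21). Its bound in that comparison, against 3 counts per library, was only 1.14-fold, and 0.65-fold without Undifferentiated 2. A 2-fold fall of Dkk2 is therefore not shown by the counts.

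Ctnnb1, the gene of β-catenin, was the most abundant of the 47 mRNAs in Undifferentiated and Lysfree cells. Ctnnb1 (ENSMUSG00000006932, chromosome 9, 120929216 to 120960507) was at 154, 147 and 150.4 FPKM in Undifferentiated, 60.3, 62.7 and 61.6 in Differentiated and 185, 176 and 163 FPKM in Lysfree libraries. The Differentiated libraries lay far below both other groups, and the Lysfree libraries lay above the Undifferentiated ones. Ctnnb1 fell in Differentiated vs Undifferentiated with a log2 fold change of -1.32 (SE 0.05, edgeR adjusted p = 9.1e-150), a 2.49-fold fall. It was 2.97-fold higher in Lysfree than in Differentiated cells (1.57, SE 0.08, edgeR adjusted p = 1.2e-12). The difference of Lysfree from Undifferentiated was 0.26 (SE 0.09, edgeR adjusted p = 0.02), under 2-fold. Reads of the overlapping Ulk4 amounted to 0.387% of those of Ctnnb1. The amount of β-catenin protein, on which the canonical branch acts, was not measured here.

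Tcf7l1, a TCF factor that mostly represses targets until β-catenin binds, took 92.7% ± 0.164 (SD, n = 3) of the summed TCF/LEF FPKM in Undifferentiated, 92.0% ± 0.345 in Differentiated and 88.6% ± 2.35 in Lysfree cells. Tcf7l1 (ENSMUSG00000055799, chromosome 6, 72626378 to 72789254) was at 56.2, 54.1 and 57.2 FPKM in Undifferentiated, 65.0, 63.6 and 63.2 in Differentiated and 21.6, 27.2 and 27.7 FPKM in Lysfree libraries. Its Lysfree libraries lay below all others. The log2 fold change was -1.08 (SE 0.11, edgeR adjusted p = 3.1e-10) in Lysfree vs Undifferentiated, where it was -1.001 without Lysfree 1 and still 2-fold, and -1.26 (SE 0.10, edgeR adjusted p = 1.4e-09) in Lysfree vs Differentiated. In Differentiated vs Undifferentiated it was 0.17 (SE 0.05, edgeR adjusted p = 0.0042), far under 2-fold.

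Lef1 (chromosome 3, 131110471 to 131224356), a TCF/LEF factor that mostly activates with β-catenin, was at 0.924, 1.00 and 0.995 FPKM in Undifferentiated, 2.05, 1.81 and 1.72 in Differentiated and 0.686, 0.764 and 0.610 FPKM in Lysfree libraries. The groups did not overlap, with Differentiated highest. Lef1 was 2.59-fold lower in Lysfree than in Differentiated cells (log2 fold change -1.37, SE 0.15, edgeR adjusted p = 2.4e-07), while its 0.91 in Differentiated vs Undifferentiated (SE 0.12, edgeR adjusted p = 2.6e-13) was under 2-fold. The overlapping antisense gene Gm43352 held 4.27% as many counts. Tcf7 had 0, 4 and 0 counts in Undifferentiated, 10, 13 and 4 in Differentiated and none in Lysfree libraries. It was at least 3.00-fold lower in Lysfree than in Differentiated cells (edgeR adjusted p = 0.00066) and higher in Differentiated than in Undifferentiated cells (edgeR adjusted p = 0.0024), at a level under 1 CPM, with Undifferentiated 2 and Differentiated 3 at the same count. Its reads are uncertain, since Gm26551 on the same strand shares 17144 bases with Tcf7 and had 10 counts against 31 of Tcf7. Tcf7l2 was at 2.33 to 3.62 FPKM in all libraries and was not a DEG. In Lysfree vs Differentiated, 3 of the 4 TCF/LEF genes were thus lower and Ctnnb1 higher, where 10.5% of all genes tested were lower and 8.14% higher. Tcf7, under 1 CPM with uncertain reads, is among the 3, and a count over 4 genes is a description only.

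The wider pathway was described by 109 further genes in 8 classes, of which 100 were tested in each comparison. In Differentiated vs Undifferentiated 9 were higher and 28 lower, in Lysfree vs Undifferentiated 6 and 15, and in Lysfree vs Differentiated 18 and 7. Over all genes tested, 10.4% were higher and 11.4% lower in the first comparison, 5.52% and 8.76% in the second and 8.14% and 10.5% in the third, and over all genes of at least 1 CPM 15.3% and 17.3%, 8.69% and 13.1%, and 12.9% and 15.5%. The counts by class below rest on 6 to 18 genes each and are a description to be read against these shares. The median log2 fold change was -0.37, -0.12 and 0.29, beside 0.02, -0.02 and -0.06 over all genes tested. Of the 6 tested genes of ligand secretion and modification, 4 were lower in Differentiated than in Undifferentiated cells. Porcn, the acyltransferase that attaches lipid to Wnt proteins, was at 10.4, 11.4 and 12.9 FPKM in Undifferentiated, 5.26, 5.83 and 4.66 in Differentiated and 21.2, 24.1 and 25.3 FPKM in Lysfree libraries. It was a DEG in all 3 comparisons, with log2 fold changes of -1.16, 1.08 (Lysfree vs Undifferentiated) and 2.23 (edgeR adjusted p = 8.8e-35, 2.6e-09 and 3e-12). Wls, the carrier that takes Wnt proteins to the cell surface, was at 31.4 to 31.8, 12.5 to 13.6 and 34.4 to 47.5 FPKM in the 3 groups, lower in Differentiated than in Undifferentiated cells (-1.30) and higher in Lysfree than in Differentiated cells (1.66, edgeR adjusted p = 4.4e-11). The glypican Gpc6 fell in Differentiated (-1.91) and in Lysfree cells (-1.10) against Undifferentiated.

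Lgr4, a receptor of the R-spondins that enhance Wnt signalling, was at 23.4 to 24.5 FPKM in Undifferentiated, 22.3 to 24.4 in Differentiated and 8.03 to 10.1 FPKM in Lysfree libraries. Lgr4 was lower in Lysfree cells than in Undifferentiated (log2 fold change -1.41, edgeR adjusted p = 1e-12) and Differentiated cells (-1.33, edgeR adjusted p = 8.6e-10), so its low group was that of Tcf7l1. Among the regulators of Dishevelled, Dact1 went from 1.12 ± 0.283 FPKM (SD, n = 3) in Undifferentiated to 0.0639 ± 0.00606 in Differentiated and 0.218 ± 0.00572 in Lysfree cells, and its 3 log2 fold changes were -4.13, -2.31 (Lysfree vs Undifferentiated) and 1.81, all DEGs. Dact3 fell by 2.09 in Differentiated vs Undifferentiated and was higher in Lysfree than in Differentiated cells (1.32). Dixdc1 was lower in Lysfree than in Differentiated cells (-2.04) and Daam2 lower in Lysfree than in Undifferentiated cells (-1.57). Dvl2 fell by 1.68 in Differentiated vs Undifferentiated, and overlaps Acadvl, so its reads are uncertain, as are those of Draxin and Apc2 for the same reason.

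In the destruction complex, DEGs were 3 of 18 genes in Differentiated vs Undifferentiated, 1 in Lysfree vs Undifferentiated and 3 in Lysfree vs Differentiated, where 21.8%, 14.3% and 18.7% of all genes were. Among its DEGs of at least 1 CPM the largest log2 fold changes were those of Frat2, an inhibitor of GSK3 (2.66 in Differentiated vs Undifferentiated and -2.01 in Lysfree vs Differentiated), which was at 0.437 ± 0.099 FPKM (SD, n = 3) in Undifferentiated, 2.89 ± 0.447 in Differentiated and 0.683 ± 0.0788 FPKM in Lysfree cells. Of the nuclear partners of β-catenin, the corepressor Tle2 was low in both cocktail groups, at 27.8 ± 0.643, 3.33 ± 0.166 and 3.32 ± 0.667 FPKM, with log2 fold changes of -3.09 and -3.01 against Undifferentiated. Pygo1, a coactivator, fell in the same comparisons with -2.37 and -1.86. The corepressor Aes fell by 1.20 in Differentiated vs Undifferentiated, and Tle4 was higher in Lysfree than in Differentiated cells by 1.63.

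Of 17 receptors and polarity genes of the non-canonical branches, 7 were lower and 1 higher in Differentiated vs Undifferentiated, 4 lower and 0 higher in Lysfree vs Undifferentiated, and 1 lower and 3 higher in Lysfree vs Differentiated (of all genes 11.4% and 10.4%, 8.76% and 5.52%, and 10.5% and 8.14%). Ror1, a receptor of Wnt5a, was at 2.85 ± 0.191 FPKM (SD, n = 3) in Undifferentiated, 0.467 ± 0.0911 in Differentiated and 1.74 ± 0.211 FPKM in Lysfree cells, with log2 fold changes of -2.64 in Differentiated vs Undifferentiated and 1.96 in Lysfree vs Differentiated. The co-receptor Ptk7 fell in Differentiated (-2.25) and in Lysfree cells (-1.51) against Undifferentiated, as did Prickle1 (-2.15 and -1.13). Prickle2 was lower in Lysfree than in Undifferentiated cells (-1.32), Mcc higher in Lysfree than in Differentiated cells (2.00) and Celsr3 lower (-3.54), at 0.0168 ± 0.0165 against 0.205 ± 0.0171 FPKM.

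Genes known as targets of β-catenin, most of which also answer to other pathways, went in both directions, with 4 of 18 higher and 6 lower in Differentiated vs Undifferentiated, 5 and 2 in Lysfree vs Undifferentiated and 6 and 2 in Lysfree vs Differentiated (of all genes 10.4% and 11.4%, 5.52% and 8.76%, and 8.14% and 10.5%). Wisp1 was at 24, 20.03 and 23.6 FPKM in Undifferentiated, 2.78, 2.45 and 2.31 in Differentiated and 35.3, 29.0 and 26.7 FPKM in Lysfree libraries, and was a DEG in Differentiated vs Undifferentiated (log2 fold change -3.19) and in Lysfree vs Differentiated (3.66, edgeR adjusted p = 1.5e-15). Id2, an inhibitor of bHLH factors, showed group means of 5.11 ± 0.323, 0.426 ± 0.225 and 10.9 ± 0.52 FPKM, with log2 fold changes of -3.56 in Differentiated vs Undifferentiated and 4.70 in Lysfree vs Differentiated. Fosl1, an AP-1 subunit, ran the other way at 5.69 ± 0.582, 251 ± 2.03 and 14.7 ± 3.68 FPKM, 5.43 and -4.03 on the same scale. Myc was at 10.8 to 11.6 FPKM in Undifferentiated, 62.5 to 66.0 in Differentiated and 57.0 to 65.0 FPKM in Lysfree libraries, high in both cocktail groups. Gja1 and Cd44 were higher in Lysfree than in Undifferentiated cells by 2.70 and 1.42 on the log2 scale. Axin2 stayed at the floor in all groups as given above.

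**Figure D4:**
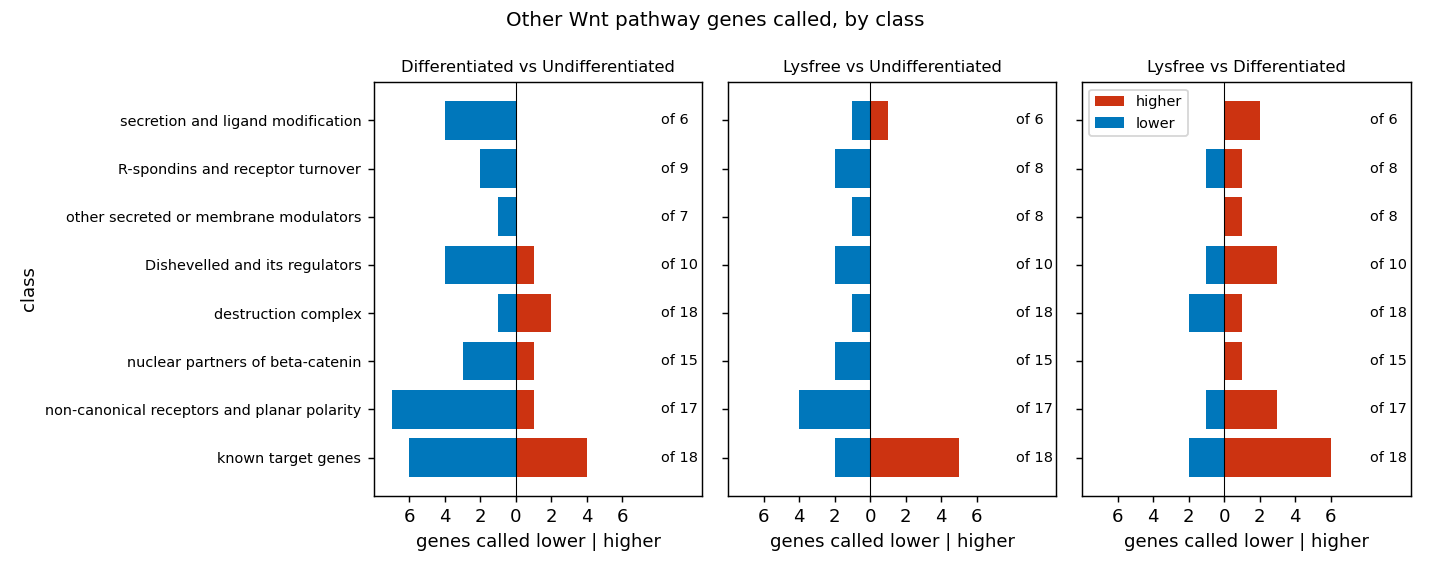
Number of DEGs that were lower (blue, to the left) and higher (red, to the right) in each class of 109 further Wnt pathway genes, for the 3 comparisons, with the number tested at the right edge. Lower genes outnumber higher ones in Differentiated vs Undifferentiated (28 against 9) and higher genes outnumber lower ones in Lysfree vs Differentiated (18 against 7).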

How the data were processed

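Poly A libraries of 9 samples were analysed, 3 per group, with groups and replicate numbers taken from the sample labels and every column matched to 1 sample by its name. Per the methods and processing notes, the authors removed reads with adaptors or low quality, mapped the rest to mm10 with HISAT2 2.0.5 and counted them per gene with featureCounts 1.5.0-p3. The strand setting and the annotation release are not given in the sources used here. The deposited count table holds raw read counts per gene, and the deposited FPKM table is those counts scaled by gene length and by library total, up to a factor of 0.932 to 1.04 in each library. Levels are deposited FPKM. Counts were tested with edgeR 4.0.16 in R 4.3.3 (glmQLFit and glmQLFTest, two-sided, scaled by TMM). Each comparison was fitted on its own 6 libraries, keeping genes that had at least 1 count in them, and p-values were adjusted by Benjamini-Hochberg over all genes kept. DEGs had an adjusted p under 0.05 and at least a 2-fold change. The standard error is the size of the log2 fold change divided by the square root of F. For 1 gene, exact permutation of 3 against 3 libraries reaches no p smaller than 0.1. A fold against a group with at most 3 counts in every library is a bound, computed against 3 counts per library. Wnt genes that were DEGs and reached 1 CPM are given in every library, others by range, and further pathway genes as the 3 largest changes per class among DEGs of at least 1 CPM. Values of genes outside this rule, of low counts or of single classes, were chosen after they were seen. The members and gene lists were chosen with earlier results of these data known, and the wider pathway list was written by hand. Overlapping genes were found from the gene coordinates in the deposited count table, and promoter windows were taken from RefSeq (GRCm38.p6). Alternatives were DESeq2 1.42.0, other scalings, edgeR's expression filter, all 9 libraries in 1 fit, a replicate block, a robust prior, no fold threshold and leaving out each library. The fit was tested on simulated data.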

Additional observations from a re-analysis of the deposited data

How the results depend on the processing

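Counts of DEGs among the 47 Wnt genes and the 109 further genes stayed within 1.5 times the reported ones under other scalings, DESeq2, edgeR's expression filter, the fit of all 9 libraries, the robust prior and the replicate block. Without the fold threshold, the Wnt genes called were 20 in Differentiated vs Undifferentiated and 18 in Lysfree vs Undifferentiated, and the further genes called were 71 and 53 in the same comparisons and 62 in Lysfree vs Differentiated. With 1 library left out, the Wnt genes called were 11 to 13, 7 to 10 and 9 to 11 in the 3 comparisons in this order, and the further genes 34 to 38, 18 to 23 and 22 to 26. Replicate numbers did not pair the samples, as same-numbered libraries deviated with r from -0.150 to 0.174, over 0.1 in 2 of 9 pairs, and the best partner had the same number in 6 of 18 choices. With the replicate block the Wnt genes called were 11, 8 and 9, and the further genes 35, 19 and 23. Of the 33 calls of Wnt genes, those of Sfrp4, Sfrp5, Dkk2, Dkk3 (Lysfree vs Differentiated) and Wnt9a (with Lysfree) were lost under some alternative, and DESeq2 did not call Sfrp5 (adjusted p = 0.075 and 0.072), Sfrp4 (0.056), Dkk2 (0.058) or Dkk3 (0.12). Wnt10b was gained in Lysfree vs Undifferentiated without Lysfree 1 (edgeR adjusted p = 0.041) and in Lysfree vs Differentiated with all 9 libraries in 1 fit (0.019) or without Differentiated 1 (0.045) or Lysfree 3 (0.046), and Sfrp4 in Lysfree vs Undifferentiated without Undifferentiated 3 (0.046) or Lysfree 1 (0.031). The expression filter removed Sfrp4, Sfrp5, Tcf7, Wnt10b, Dkk2 and, in Lysfree vs Differentiated, Dkk3 before the test, so these calls have no value under it. No called gene turned direction under the alternatives that gave a value. Among genes not called, the log2 fold change crossed 0 with 1 library left out, ranging in Differentiated vs Undifferentiated from -0.0290 to 0.1123 for Fzd5, -0.0152 to 0.0651 for Tcf7l2 (-0.0174 with library sizes alone), -0.2660 to 0.1212 for Fzd3 and -1.5768 to 0.0943 for Dkk2, in Lysfree vs Undifferentiated from -0.6153 to 0.4468 for Sfrp5, and in Lysfree vs Differentiated from -0.0934 to 0.1389 for Fzd8 (-0.0012 with the expression filter). The causes were not tested. Depth limits the genes under 1 CPM, whose folds are bounds where a group is at the floor.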
